A study of Mus musculus with 12 samples.

Results

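The genes described here are those of the ISG15 conjugation system, viperin and related antiviral effectors. They are Isg15, Usp18, Herc6, Ube2l6, Rsad2, Cmpk2, Rtp4, Daxx and Znfx1, chosen by symbol in the array annotation. A gene was read from a probe set that names it alone, and where several exist from the one with the highest mean over the 12 arrays. By that rule 8 of the 9 genes were measured, each by 1 probe set, out of 19937 genes in all. Isg15 itself could not be read, because its probe set also names the pseudogene Gm9706. The arrays measured newly made RNA of mouse macrophages from the strain C57BL/6, 3 arrays in each of 4 groups. MPI-2 LPS and MPI-2 mock are the fetal liver-derived, self-renewing line MPI-2 with and without lipopolysaccharide (LPS), grown in RPMI with granulocyte-macrophage colony-stimulating factor (GM-CSF). BMM LPS and BMM mock are bone marrow-derived macrophages grown in DMEM with macrophage colony-stimulating factor (M-CSF), again with and without LPS. All 4 groups had 10% fetal calf serum and 60 min of 4-thiouridine, which marks RNA while it is transcribed. In the LPS groups the label was added 30 min after LPS, so those samples cover 30 to 90 min of exposure. MPI-2 arrays come from 1 line, and growth factor, medium and any array batch go with cell type, so these cannot be told apart. The labels do not say which arrays came from different mice or dishes, so a p-value here reflects array-to-array spread, part of which may be technical.

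ISG15 is a ubiquitin-like protein that is attached to other proteins after interferon or infection. The activating enzyme Uba7 passes it to the conjugating enzyme Ube2l6, and Herc6 is the main ligase in the mouse. Usp18 removes it again and also binds the interferon receptor subunit Ifnar2, where it dampens signalling. Rsad2 encodes viperin, a radical enzyme that turns CTP into a chain terminator of viral RNA synthesis, and Cmpk2, encoded next to it, is a mitochondrial nucleotide kinase. Rtp4 is a receptor transporter protein with antiviral activity, Daxx is a chaperone of the histone variant H3.3 that resides in PML bodies, and Znfx1 is a helicase-type sensor of viral RNA. In macrophages LPS reaches such genes through Toll-like receptor 4, the adaptor TRIF and secreted interferon beta, whose receptor signals to transcription factors that include Stat2 and Irf9.

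Because these genes are classic interferon targets, the promoter windows of 7 of the 9 genes in the RefSeq table (GRCm38.p6, 250 bases before to 50 after a start site) were searched on both strands. One motif was the interferon-stimulated response element, a pair of GAAA runs with any 2 bases between them, found in 3.43% of 32817 such windows of all genes. Its shorter core AANNGAAA, which the full element always contains, was found in 23.9%. The gamma-activated site TTCNNNGAA (8.29% of all windows) and the kappaB site (4.5%) were searched as well and matched no window of these genes. The Isg15 window held 3 overlapping matches to the full element at positions -78 to -57 from the start site. The Rsad2 window held 1, on the opposite strand at -120 to -111, and a core match at -106 to -99. The windows of Cmpk2, Herc6, Ube2l6, Daxx (3 start sites) and Znfx1 (2 start sites) held neither, which says only that these letters are not in those windows. The windows of Isg15, of the neighbours Rsad2 and Cmpk2, and of Znfx1 are shown to set the windows with a match beside those without. Capitals mark the bases of either motif.
Isg15, chr4:156200769-156201068, minus strand: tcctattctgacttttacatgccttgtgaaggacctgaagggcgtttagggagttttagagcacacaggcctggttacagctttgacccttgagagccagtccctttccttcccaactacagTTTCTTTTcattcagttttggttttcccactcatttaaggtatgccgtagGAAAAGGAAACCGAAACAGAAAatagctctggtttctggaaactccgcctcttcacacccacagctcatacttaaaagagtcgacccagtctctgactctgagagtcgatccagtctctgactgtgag
Rsad2, chr12:26456403-26456702, minus strand: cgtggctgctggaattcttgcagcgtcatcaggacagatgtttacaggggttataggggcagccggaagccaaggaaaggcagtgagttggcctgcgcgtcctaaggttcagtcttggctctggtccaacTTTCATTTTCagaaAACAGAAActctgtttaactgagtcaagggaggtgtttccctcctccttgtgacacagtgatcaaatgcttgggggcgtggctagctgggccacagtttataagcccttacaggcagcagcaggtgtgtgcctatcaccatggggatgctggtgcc
Cmpk2, chr12:26468965-26469264, plus strand: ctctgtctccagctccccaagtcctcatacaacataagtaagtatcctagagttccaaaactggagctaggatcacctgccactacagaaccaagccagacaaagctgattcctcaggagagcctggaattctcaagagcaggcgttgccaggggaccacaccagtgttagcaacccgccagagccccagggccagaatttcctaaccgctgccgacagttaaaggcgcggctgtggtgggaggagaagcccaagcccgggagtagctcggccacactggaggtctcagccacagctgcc
Znfx1, chr2:167062966-167063265, minus strand: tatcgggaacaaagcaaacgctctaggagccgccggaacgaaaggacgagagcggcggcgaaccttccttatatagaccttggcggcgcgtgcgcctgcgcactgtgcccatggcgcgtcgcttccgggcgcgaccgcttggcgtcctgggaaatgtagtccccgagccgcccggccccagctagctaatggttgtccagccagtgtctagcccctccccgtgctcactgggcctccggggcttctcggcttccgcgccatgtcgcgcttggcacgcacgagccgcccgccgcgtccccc

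Values are log2 expression values, in which a step of 1 is a doubling, and the background level was 3.36, the 95th percentile of 1027 olfactory receptor genes. Array medians of the deposited table lay between 3.60 and 3.79. Within a group, correlations across genes were at least 0.994 in MPI-2 and 0.975 in BMM. The number of arrays limits the precision, and read depth does not apply to arrays. All 10 macrophage markers, among them Ptprc, Csf1r, Adgre1 and Spi1, were above background in all 4 groups. By limma (adjusted p under 0.05) 6 were lower and 1 higher in MPI-2 than BMM in mock. After LPS 4 were lower and 3 higher. Fcgr1 averaged 3.93 in MPI-2 LPS and 8.24 in BMM LPS, while Mertk averaged 8.22 and 5.07. The shares of all genes were 18% lower and 20.6% higher in mock, and 21.6% and 22.5% after LPS. Of 5 markers of plasmacytoid dendritic cells, a strong source of interferon, 3 were above background in MPI-2 LPS, 3 in MPI-2 mock, 4 in BMM LPS and 3 in BMM mock. Their summed levels ran from 21.46 to 22.32 in MPI-2 LPS and 21.24 to 21.92 in MPI-2 mock, against 26.28 to 27.19 in BMM LPS and 26.67 to 26.96 in BMM mock. Siglech, the defining marker, was below background in each group (means 2.77 to 3.21), and Ccr9 was above it in BMM LPS only, at 3.40. Tcf4 and Irf8, which macrophages express too, were lower in the line, at 6.20 and 6.25 in MPI-2 LPS, against 8.45 and 7.99 in BMM LPS. Of 4 conventional dendritic cell markers 2 were above background in each group. Clec9a averaged 5.35 in MPI-2 LPS and 5.83 in MPI-2 mock, against 3.18 in BMM LPS and 2.89 in BMM mock, while Xcr1 was lower in the line (2.96 in MPI-2 mock and 3.60 in BMM mock) and Flt3 was below background throughout. Of 4 fibroblast markers 3 were above background in each group. Pdgfra averaged 4.41 in MPI-2 LPS and 6.13 in MPI-2 mock, against 3.50 in BMM LPS and 3.39 in BMM mock. Col1a1 was lower in MPI-2 mock (4.42) than in BMM mock (4.99), Col1a2 did not pass (3.71 in MPI-2 mock and 4.09 in BMM mock), and Dcn was below background throughout. The part of these markers in the results was not tested.

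The first comparison asked what LPS changed in the RNA made by BMM. All 8 measured genes rose, by log2 0.72 to 4.38, with limma adjusted p-values from 3.26e-11 to 0.000461. Among all 19937 genes 10.3% rose at this threshold, an adjusted p under 0.05, and the median change of the 8 genes was 2.19, against 0.04 over all genes. In each of the 8 the 3 LPS arrays lay above the 3 mock arrays, as for 15.6% of all genes. In these bulk samples, of BMM and of MPI-2, a change in the share of responding cells and a change in RNA per cell cannot be told apart.

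Viperin and its neighbour led the group. Cmpk2 had values of 10.96, 11.08 and 10.53 in BMM LPS, against 6.25, 6.41 and 6.76 in BMM mock. The gap between the groups was wider than 3 log2 steps, and the increase of 4.38 ± 0.17 (SE; limma adjusted p = 3.26e-11), or 20.9-fold, ranked 24 among all genes. Rsad2 had 11.77, 11.74 and 11.84 in BMM LPS, against 7.98, 8.48 and 9.0 in BMM mock. It rose by 3.30 ± 0.21 (adjusted p = 9.53e-09, limma), rank 72. Its LPS arrays lay close together and near the highest value of the deposited table, 12.82, while its mock arrays spread over about a log2 step.

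The ISG15 enzymes rose by 2.19 to 2.32. The conjugating enzyme Ube2l6 had 7.75, 7.89 and 7.43 in BMM LPS, against 5.46, 5.55 and 5.09 in BMM mock, an increase of 2.32 ± 0.18. The ligase Herc6 had 8.17, 8.15 and 8.46 in BMM LPS, against 5.58, 6.48 and 6.12 in BMM mock, an increase of 2.20 ± 0.19. The protease Usp18 had 9.67, 9.81 and 9.47 in BMM LPS, against 7.37, 7.27 and 7.72 in BMM mock, an increase of 2.19 ± 0.14. The limma adjusted p-values of these 3 genes ran from 1.49e-08 to 2.62e-07, and their changes lay at ranks 164, 195 and 200. Daxx had 8.68, 8.78 and 8.13 in BMM LPS, against 6.89, 6.82 and 6.74 in BMM mock (increase 1.71 ± 0.18). Znfx1 had 9.42, 9.51 and 9.41 in BMM LPS, against 8.10, 8.04 and 8.21 in BMM mock (increase 1.33 ± 0.12). Rtp4 changed least of the 8 genes. It had 10.34, 10.46 and 10.57 in BMM LPS, against 9.82, 9.70 and 9.69 in BMM mock, an increase of 0.72 ± 0.13 (adjusted p = 0.000461, limma). After a second quantile normalization of the arrays the Rtp4 change was 0.34 with a limma adjusted p of 0.0717. BMM LPS replicate 3 was the lowest of its group for Cmpk2, Ube2l6, Usp18, Daxx and Znfx1, and the highest for Herc6, Rsad2 and Rtp4.

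**Figure D1:**
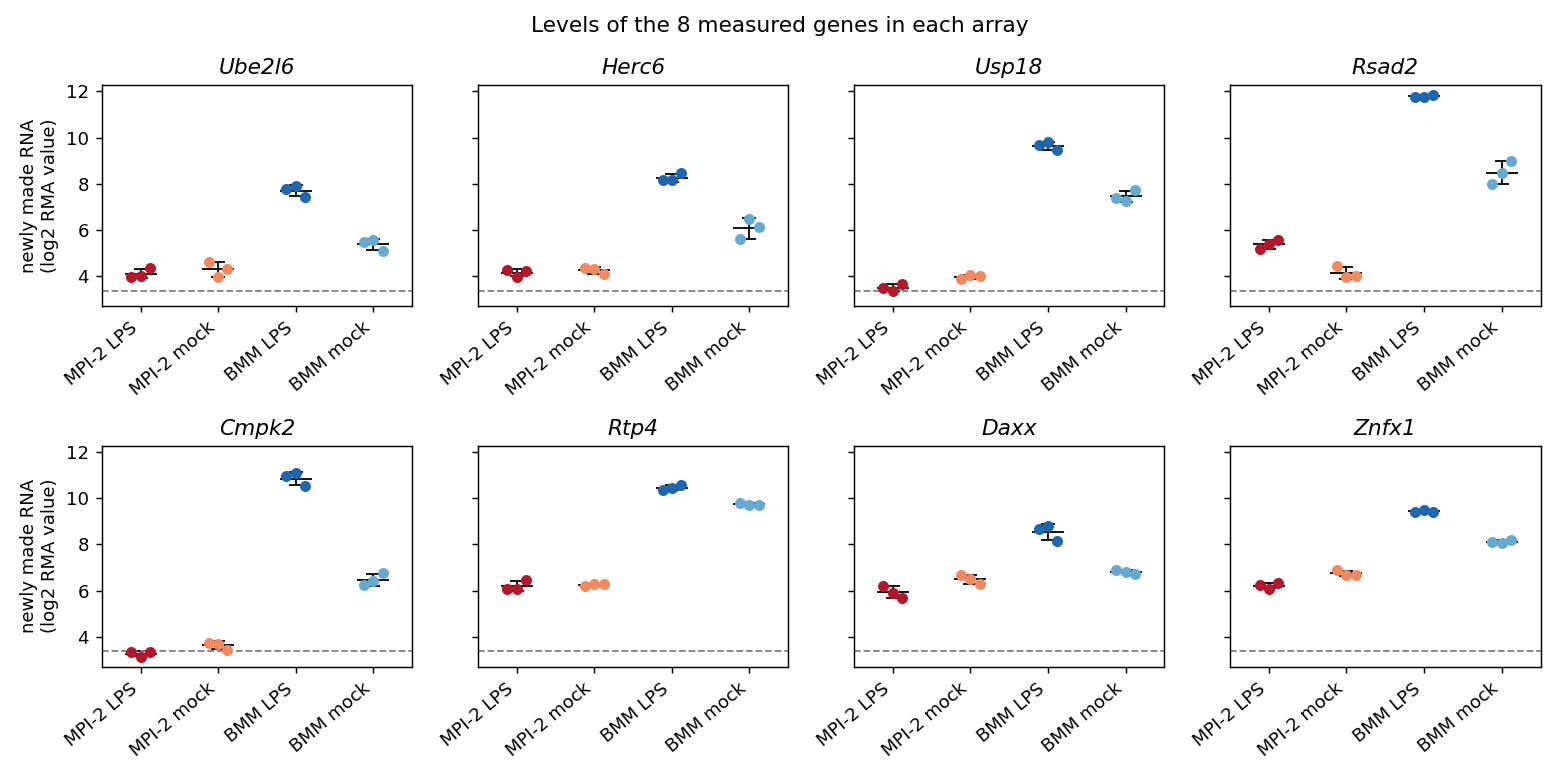
Log2 RMA value (y axis) of each of the 8 measured genes in each array, by group (x axis); points are arrays, black bars the mean and SD of 3 arrays, and the dashed line the background level of 3.36. BMM LPS arrays lie highest for each gene, and Cmpk2 and Usp18 in MPI-2 lie close to background.

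The second comparison asked the same in the MPI-2 line. Rsad2 alone rose, Znfx1, Usp18 and Daxx fell, and the other 4 did not pass the threshold. Of all genes 5.17% rose and 9.58% fell, and the median change of the 8 genes was -0.27, against 0.02 over all genes. The 3 LPS arrays lay above all mock arrays for Rsad2 (16.6% of all genes) and below them for Znfx1, Usp18, Daxx and Cmpk2 (20.5% of all genes).

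Rsad2 had 5.17, 5.39 and 5.57 in MPI-2 LPS, against 4.42, 3.97 and 4.00 in MPI-2 mock. It rose by 1.25 ± 0.21 (limma adjusted p = 0.000527), or 2.37-fold, rank 249 among all genes, to a level that was still below that of unstimulated BMM. Cmpk2, its neighbour, had 3.35, 3.14 and 3.34 in MPI-2 LPS, against 3.75, 3.70 and 3.43 in MPI-2 mock. The difference was -0.35 ± 0.17 (limma adjusted p = 0.218), with a 95% interval of -0.71 to 0.0032, which does not overlap the interval of 0.81 to 1.69 for Rsad2. The difference between these genes was not itself tested. The mean of Cmpk2 in MPI-2 LPS was 3.28, under background, so a decrease there may be understated. With the 6 MPI-2 arrays alone (adjusted p = 0.0344) and with array weights (0.0211), limma called Cmpk2 lower.

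Znfx1 had the lowest adjusted p of the genes that fell. It had 6.26, 6.08 and 6.31 in MPI-2 LPS, against 6.88, 6.68 and 6.68 in MPI-2 mock, a difference of -0.53 ± 0.12 (limma adjusted p = 0.00479), and limma called it in all 22 alternatives. Daxx had 6.21, 5.91 and 5.68 in MPI-2 LPS, against 6.69, 6.49 and 6.28 in MPI-2 mock, with groups that lie close to each other. Its difference of -0.55 ± 0.18 had a limma adjusted p of 0.048. Usp18 had 3.47, 3.37 and 3.67 in MPI-2 LPS, against 3.88, 4.03 and 3.99 in MPI-2 mock, a difference of -0.46 ± 0.14 (limma adjusted p = 0.041) just above background. These last calls depended on the setting. Daxx and Usp18 each kept a limma adjusted p under 0.05 in 12 of 22 alternatives, with differences from -0.69 to -0.40 and from -0.55 to -0.33. Without MPI-2 mock replicate 1 they were -0.45 (adjusted p = 0.22) and -0.51 (adjusted p = 0.074). Leaving out replicate 2 of either MPI-2 group ended both calls too. The Daxx call also ended on dropping replicate 3 of MPI-2 LPS, and the Usp18 call on dropping replicate 1 of MPI-2 LPS or replicate 3 of MPI-2 mock. For Daxx the same happened on dropping replicate 2 of BMM mock, replicate 3 of BMM mock and replicate 1 of BMM LPS, which enter through the shared spread alone (adjusted p of 0.0551, 0.0596 and 0.0518, limma).

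The remaining genes showed differences near 0. Herc6 had 4.25, 3.97 and 4.22 in MPI-2 LPS, against 4.36, 4.30 and 4.09 in MPI-2 mock (-0.10, 95% interval -0.50 to 0.30). Ube2l6 had 3.97, 3.99 and 4.34 in MPI-2 LPS, against 4.61, 3.96 and 4.32 in MPI-2 mock (-0.20, interval -0.59 to 0.19). Rtp4 had 6.09, 6.05 and 6.45 in MPI-2 LPS, against 6.22, 6.28 and 6.28 in MPI-2 mock (-0.06, interval -0.33 to 0.21). Their groups overlapped, and the intervals leave room for changes of up to 0.59 in size. The sign of Herc6 turned after cyclic loess (0.05), and that of Rtp4 after a second quantile normalization (0.09) and without MPI-2 LPS replicate 2 (0.01), in each case without a call.

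**Figure D2:**
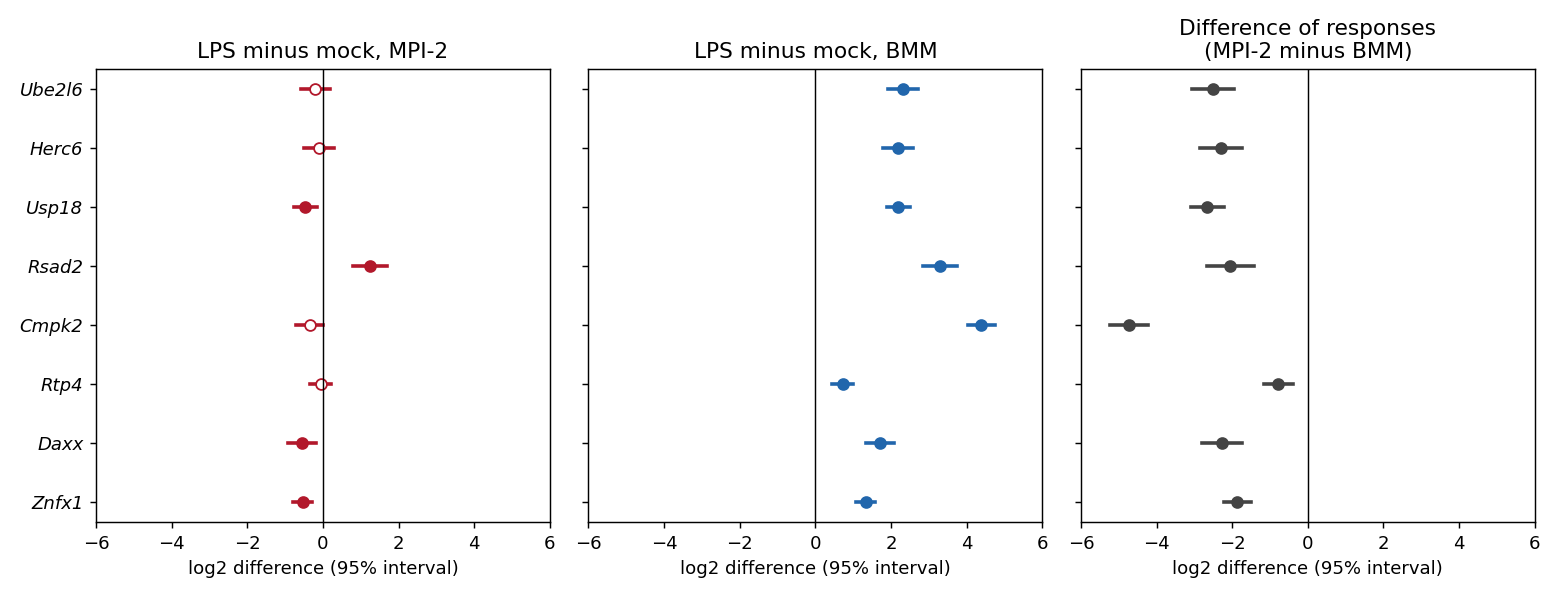
Log2 difference (x axis) with its 95% interval for each gene (y axis): LPS minus mock in MPI-2 (left), LPS minus mock in BMM (middle) and the first minus the second of these (right); filled points have a limma adjusted p under 0.05. All 8 genes lie right of 0 in BMM and left of 0 in the difference, while in MPI-2 only Rsad2 lies clearly to the right.

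The third comparison tested whether the response differed between the cell types. It was lower in MPI-2 than in BMM for all 8 genes, while 6.27% of all genes were lower and 7.08% higher, with differences of -4.73 to -0.78 and limma adjusted p-values from 4.42e-09 to 0.00806. The median was -2.28, against -0.02 over all genes. Cmpk2 had the widest difference, -4.73 ± 0.24, which only 5 of the 19937 genes exceeded on that side. Usp18 followed at -2.65 ± 0.20, Ube2l6 at -2.52 ± 0.26, Herc6 at -2.30 ± 0.26, Daxx at -2.27 ± 0.25 and Rsad2 at -2.05 ± 0.29. Rsad2 thus responded in MPI-2, by less than in BMM. Znfx1 differed by -1.86 ± 0.16 with opposite called changes, lower in MPI-2 and higher in BMM. Rtp4 differed least, -0.78 ± 0.18 (limma adjusted p = 0.00806), and by -0.25 (adjusted p = 0.476) after a second quantile normalization. For Cmpk2 the MPI-2 LPS level is limited by background, so its difference may be understated. On dropping replicate 3 of BMM LPS along with replicate 1 of BMM mock, a choice made after seeing the data, the differences of all 8 genes still had a limma adjusted p under 0.05.

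**Figure D3:**
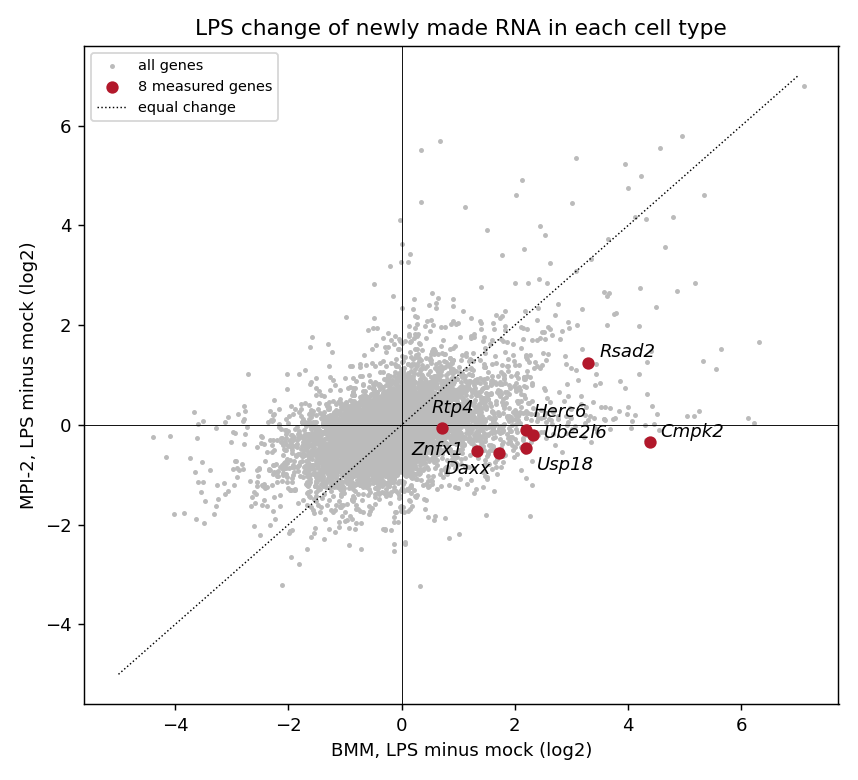
LPS minus mock (log2) in MPI-2 (y axis) and BMM (x axis) for 19937 genes in grey and the 8 measured genes in red, with the dotted line marking equal change. The 8 genes lie right of 0 and below the line, and Rsad2, at 1.25 in MPI-2 and 3.30 in BMM, is the highest of them.

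The last pair of comparisons set the line against BMM in each state. In mock, 7 of the 8 genes were lower in MPI-2, against 18% of all genes, and after LPS all 8 were lower, against 21.6% of all genes. The medians were -2.33 and -4.18, against -0.10 and -0.14 over all genes. In both states the 3 MPI-2 arrays lay below the 3 BMM arrays for each of the 8 genes, as for 29.3% of all genes in mock and 31.1% after LPS, while 23% and 24.4% lay above. Over all genes MPI-2 was higher for 4108 and lower for 3579 in mock, and higher for 4488 and lower for 4312 after LPS. With each array centred on its median, the splits were 5032 to 1910 and 5141 to 2242, and the medians over all genes 0.08 and 0.02. That centring left 7 and 8 of these genes lower.

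Rsad2 differed most in the unstimulated state. It averaged 4.13 ± 0.25 in MPI-2 mock and 8.48 ± 0.51 in BMM mock (SD, n = 3), a difference of -4.35 ± 0.21 (SE) that ranked 40 from the lowest. Usp18 averaged 3.97 ± 0.08 in MPI-2 mock and 7.45 ± 0.24 in BMM mock, and Rtp4 6.26 ± 0.036 and 9.74 ± 0.068 (differences of -3.49 and -3.48). Cmpk2 averaged 3.63 ± 0.17 in MPI-2 mock and 6.47 ± 0.26 in BMM mock, a difference of -2.84. Herc6 (-1.81), Znfx1 (-1.37) and Ube2l6 (-1.07) differed by less, and Daxx, at 6.49 ± 0.21 in MPI-2 mock and 6.82 ± 0.073 in BMM mock, did not pass (-0.33, 95% interval -0.70 to 0.05). Daxx was called lower after cyclic loess (-0.73) and after a second quantile normalization (-0.72). The limma adjusted p-values of the 7 called genes ran from 1.07e-11 to 0.000204.

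After LPS the distances widened. Cmpk2 averaged 3.28 ± 0.12 in MPI-2 LPS and 10.86 ± 0.29 in BMM LPS, a difference of -7.58 ± 0.17, which 3 of the 19937 genes exceeded on that side. With a level under background in the line, this difference may be understated. Rsad2 averaged 5.38 ± 0.20 in MPI-2 LPS and 11.78 ± 0.052 in BMM LPS (-6.41, rank 16 from the lowest), and Usp18 3.50 ± 0.15 and 9.65 ± 0.17 (-6.14, rank 19). Rtp4 differed by -4.26, Herc6 by -4.11, Ube2l6 by -3.59, Znfx1 by -3.23 and Daxx by -2.59, with limma adjusted p-values of all 8 genes from 4.91e-14 to 7.79e-09. The order of levels was therefore BMM LPS, BMM mock and then the MPI-2 groups for each gene. Within the line MPI-2 LPS stood above MPI-2 mock for Rsad2, and the reverse held for Znfx1, Usp18 and Daxx. Herc6, Ube2l6 and Rtp4, whose arrays overlapped, and Cmpk2, whose arrays did not, did not pass the test. Between MPI-2 mock and BMM mock Daxx did not pass the test, though its MPI-2 arrays all lay below its BMM arrays.

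Other parts of the ISG15 system were read from a list of 9 genes. In MPI-2 1 rose and 2 fell, and in BMM 2 rose and 3 fell (list medians -0.08 and -0.12, against 0.02 and 0.04 over all genes). Of all genes 5.17% rose and 9.58% fell in MPI-2, and 10.3% rose and 15.4% fell in BMM. Uba7, the activating enzyme, averaged 4.76 in MPI-2 LPS and 4.52 in MPI-2 mock, and 7.30 in BMM LPS against 5.51 in BMM mock. It differed by 0.24 in MPI-2 (limma adjusted p = 0.475) and rose by 1.79 ± 0.17 in BMM (adjusted p = 7.08e-07), and the difference of the responses was -1.55 ± 0.24. Trim25, a further ISG15 ligase that also modifies RIG-I, fell in MPI-2, -0.98 ± 0.13 (limma adjusted p = 8.36e-05), and differed by -0.08 in BMM, a sign that turned without BMM mock replicate 1 (0.05). Over 22 alternatives its BMM difference ran from -0.43 to 0.08, and 1 of them called it lower (limma adjusted p = 0.0363). Itgal and Itgb2 encode the chains of LFA-1, a receptor for secreted ISG15. Itgal rose by 1.62 ± 0.16 in BMM while Itgb2 fell, -1.37 ± 0.14. Skp2, a subunit of a ubiquitin ligase that targets Usp18, fell in MPI-2, -0.58 ± 0.14, a call lost without MPI-2 LPS replicate 2, and in BMM, -1.47 ± 0.14. Usp16 was the gene that rose in MPI-2, from 6.87 in mock to 7.43 after LPS, called in 17 of 22 alternatives. Set against BMM, 5 of the 9 genes were higher in MPI-2 and 2 lower in mock, and 5 higher and 3 lower after LPS. The shares of all genes were 20.6% and 18% in mock, and 22.5% and 21.6% after LPS. Usp14, which was higher, averaged 8.96 in MPI-2 mock and 6.90 in BMM mock, while Uba7 was lower.

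Viperin needs an iron-sulfur cluster and CTP. Of 15 genes for these and for its binding partners, none rose and 1 fell in MPI-2 by limma (0 rose at an unadjusted p under 0.05), 1 rose and 5 fell in BMM, and 1 differed between the responses. Of all genes 5.17% rose and 9.58% fell in MPI-2, and 10.3% rose and 15.4% fell in BMM. Responses were higher in MPI-2 for 7.08% of all genes and lower for 6.27%. Ctps2, a CTP synthase, fell in both, -0.78 ± 0.13 in MPI-2 and -0.81 ± 0.13 in BMM, or -0.54 in BMM after cyclic loess. The list stood higher in the line, with 11 of 15 genes higher in MPI-2 than BMM in mock and 12 after LPS, against 20.6% and 22.5% of all genes. In a fit of the 12030 genes above background alone, limma called 4061 higher in mock and 4426 after LPS. That is a larger share than over all genes. Ctps, the other CTP synthase, was higher by 2.31 ± 0.14 in mock and 2.42 ± 0.14 after LPS, differences that may be understated because its BMM means, 3.15 in BMM mock and 3.00 in BMM LPS, were under background. The paralogs Rtp1, Rtp2 and Rtp3 stayed near background and none passed the test with LPS in either cell type, where limma gave adjusted p-values of 0.179 or more and 1 unadjusted p under 0.05, for Rtp2 in MPI-2.

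Among 7 measured partners of Daxx, 1 rose and 3 fell in MPI-2 (5.17% and 9.58% of all genes), and 3 rose and 2 fell in BMM (10.3% and 15.4%). Pml, the scaffold of PML bodies, went opposite ways. It had 4.73, 4.70 and 4.97 in MPI-2 LPS, against 6.15, 6.27 and 5.93 in MPI-2 mock, and 7.92, 8.07 and 7.59 in BMM LPS, against 6.38, 5.97 and 6.32 in BMM mock. It fell in MPI-2, -1.32 ± 0.16, and rose in BMM by 1.64 ± 0.16, and the responses differed by -2.96 ± 0.22 (limma adjusted p = 2.82e-07). Sp140, another PML body protein, rose by 1.02 ± 0.25 in MPI-2 and 4.20 ± 0.25 in BMM, and its MPI-2 call was lost without MPI-2 mock replicate 3. Atrx, which deposits H3.3 with Daxx, fell in BMM, -0.99 ± 0.24, or -0.65 without BMM mock replicate 2.

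The factors that act upstream of these genes were read from 15 measured genes of interferon induction and signalling. Of these 5 rose and 2 fell in MPI-2, 9 rose and none fell in BMM, and 7 responses were lower in MPI-2 with none higher. The shares of all genes were 5.17% and 9.58% in MPI-2, 10.3% and 15.4% in BMM, and 6.27% lower and 7.08% higher for the responses. By limma 0 of the 15 fell in BMM, and 0 responses were higher in MPI-2, at an unadjusted p under 0.05 too. Irf7, the factor that amplifies interferon production, had 3.74, 3.98 and 3.51 in MPI-2 LPS, against 3.68, 4.09 and 3.89 in MPI-2 mock. In BMM LPS it had 9.27, 9.32 and 8.97, against 7.07, 6.15 and 6.79 in BMM mock. It differed by -0.14 in MPI-2 (limma adjusted p = 0.798) and rose by 2.51 ± 0.20 in BMM (adjusted p = 1.65e-07). Stat2, a subunit of the factor that binds the response element, differed by -0.22 in MPI-2 (limma adjusted p = 0.506) and rose by 1.32 ± 0.16 in BMM. Irf1 differed by 0.18 in MPI-2 and rose by 2.06 ± 0.14 in BMM, or 1.18 as the mean of all its probe sets. The kinases Tbk1 and Ikbke, which activate Irf3, rose in both cell types, Tbk1 by 0.84 ± 0.12 in MPI-2 and 0.61 ± 0.12 in BMM, and Ikbke by 1.29 ± 0.13 and 2.55 ± 0.13. Interferon beta itself (Ifnb1) was under background in MPI-2 LPS, at 2.71 ± 0.11, and reached 8.96 ± 0.66 in BMM LPS (SD, n = 3). Against BMM, 10 of the 15 genes were lower in MPI-2 in mock (18% of all genes), and 10 after LPS (21.6%), among them the receptor subunits Ifnar1 (-1.56 and -1.35) and Ifnar2 (-1.22 and -0.95). In both states 2 of the 15, Mavs and Ticam2, were higher in MPI-2, against 20.6% and 22.5% of all genes. Mavs averaged 8.13 in MPI-2 mock and 6.63 in BMM mock, and Ticam2 7.25 and 6.23. After LPS each was called higher in 20 of 22 alternatives.

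**Figure D4:**
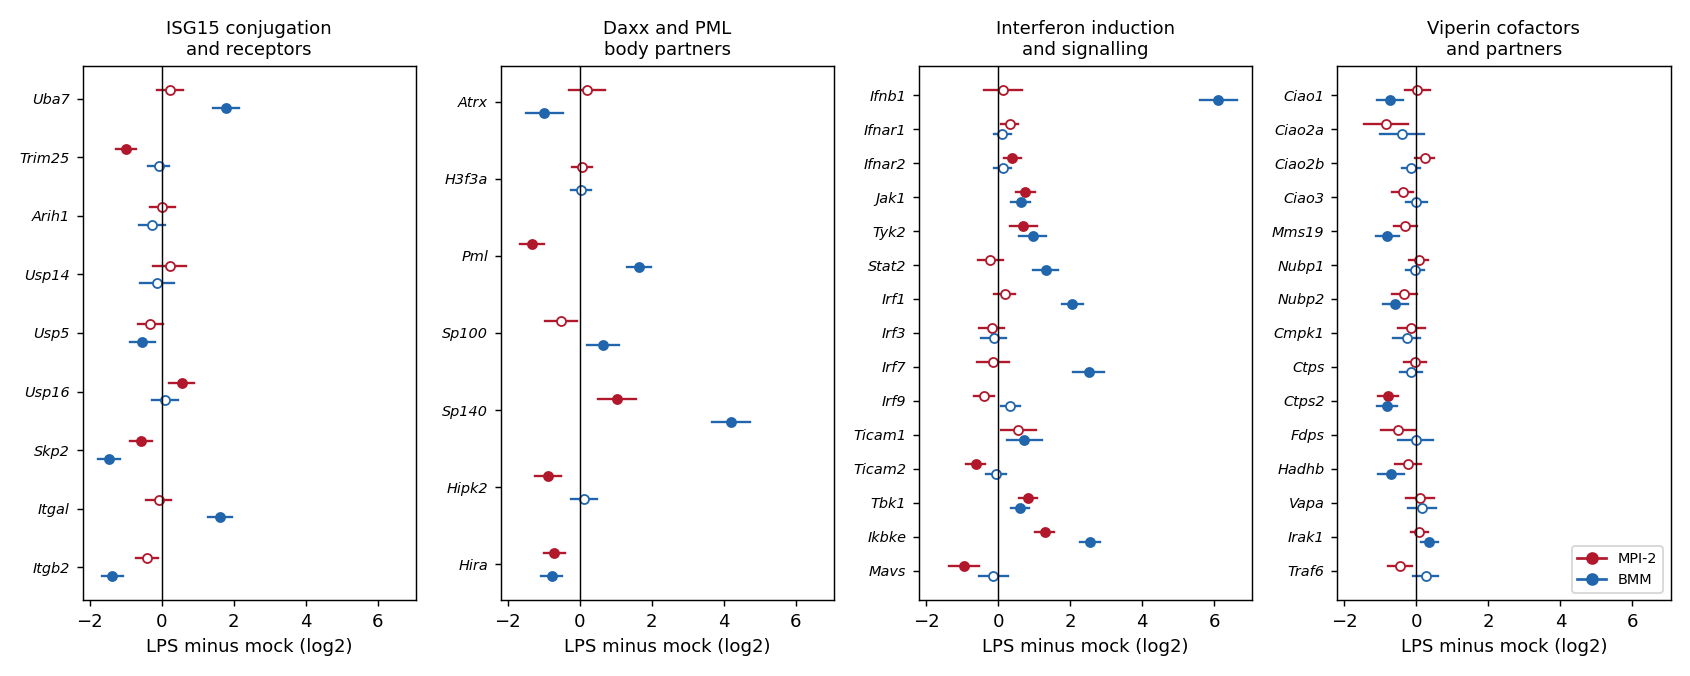
LPS minus mock (log2, x axis) with its 95% interval for genes of 4 lists (y axis), MPI-2 in red above BMM in blue; filled points have a limma adjusted p under 0.05. Uba7, Pml, Sp140, Irf7, Stat2 and Ifnb1 lie further right in BMM than in MPI-2.

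Genes beside these on the chromosome were read to see whether they moved too. Of the 15 nearest measured genes, none passed the threshold with LPS in MPI-2, where limma gave adjusted p-values of 0.141 or more and 2 genes had an unadjusted p under 0.05. In BMM 5 rose and none fell (0 at an unadjusted p under 0.05), and 2 responses were lower in MPI-2 than in BMM. Of all genes 5.17% rose and 9.58% fell in MPI-2, 10.3% rose and 15.4% fell in BMM, and 6.27% had a lower response in MPI-2. Those 2 were Ppm1k, beside Herc6, and Agrn, beside Isg15. Ppm1k, a mitochondrial phosphatase, averaged 3.99 ± 0.28 in MPI-2 LPS and 4.17 ± 0.26 in MPI-2 mock, and 7.15 ± 0.51 in BMM LPS against 4.89 ± 0.21 in BMM mock (SD, n = 3). It differed by -0.18 in MPI-2 and rose by 2.26 ± 0.22 in BMM, where Herc6 rose by 2.20. Agrn, which encodes the matrix protein agrin, rose by 1.48 ± 0.16 in BMM, and its MPI-2 means were under background. Rnf144a, on the far side of Rsad2, did not pass in either cell type (0.16 in MPI-2, adjusted p = 0.561, and 0.10 in BMM, adjusted p = 0.616, limma).

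Across the 12 arrays the genes with the most similar pattern were found among 11485 other genes above background by Pearson's r. The arrays share their cell types and treatments, so r is high for any gene that differs between these groups, and it is given as a description. Closest to Usp18 were Oasl2, Ahr and Igf2r (r of 0.997, 0.997 and 0.995), and closest to Cmpk2 were Oas1b, Parp9 and Swap70 (0.996, 0.994 and 0.994). Parp9 was also first for Herc6 (0.996), and the RNA sensor Dhx58 was first for Znfx1 (0.996). Zbp1 was first for Ube2l6 (0.987), Itgav for Rsad2 (0.995) and Zdhhc14 for Rtp4 (0.998). Daxx had the least close companion, Arid5a, at 0.977.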

How the data were processed

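Newly made RNA, purified after 4-thiouridine labelling, was hybridised to 12 whole-transcript arrays, 200 ng per sample. The authors deposited log2 values of each probe set, computed by RMA in the package affy, per the submitters' processing notes. The sources used here do not give its version or say whether the arrays were normalized together. RMA is meant to bring arrays to a common distribution, so all changes are relative to the other genes. The arrays still differed in spread over the 19937 genes. Their interquartile range was 3.097 to 3.215 in MPI-2 LPS and 3.270 to 3.470 in MPI-2 mock. In BMM LPS it was 2.338 to 2.740, and in BMM mock 2.802 to 2.932. The log base was taken from the method and the range of values, 1.18 to 12.82. Of 34760 probe sets 21640 named 1 gene and 1321 several, and 11799 had no name here; the platform annotation matched RefSeq GRCm38.p6 by Entrez identifier for 21553. Keeping the brightest probe set per gene left 19937 genes, 12030 of them above background. Groups came from the sample titles. With limma 3.58.1 in R 4.3.3 the 4 groups were fitted together across genes (8 residual degrees of freedom), giving 5 comparisons with Benjamini-Hochberg adjustment over all genes, and intervals are at 95%. The groups share 1 spread per gene in this fit. The median SD of a gene was 0.109 in MPI-2 LPS and 0.120 in MPI-2 mock, against 0.204 in BMM LPS and 0.176 in BMM mock. Standard errors and intervals within MPI-2 may therefore be too wide, and those within BMM too narrow. The fit was tested on simulated data. No gene was filtered out. The alternatives were other scalings, a background filter, fewer arrays, a replicate block, other variance estimates, array weights, averaged probe sets and leaving out each array. Deviations of same-numbered arrays, by the numbers of the titles, correlated with r of -0.154 to 0.242, highest for replicate 1 of BMM LPS and BMM mock. Differently numbered arrays were not compared, so a shared replicate effect was not tested. The numbers were not taken to pair samples. The descriptions number the MPI-2 mock arrays 2 to 4 where the titles have 1 to 3, and that numbering was not tried. Genes are named by rule: the 9 listed genes, 5 lists of 52 entries (49 measured), nearest neighbours and the 3 most correlated genes of each member, given in part. The members and lists were chosen with earlier results of these data known. Promoter sequences are from RefSeq.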

Additional observations from a re-analysis of the deposited data

Results flagged for a closer look

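The LPS response differed between the cell types by limma's test of the difference itself, MPI-2 minus BMM on the log2 scale, for each of the 8 measured genes: Cmpk2 (-4.73), Usp18 (-2.65), Ube2l6 (-2.52), Herc6 (-2.30), Daxx (-2.27), Rsad2 (-2.05), Znfx1 (-1.86) and Rtp4 (-0.78). Among the genes of the lists the response was lower in MPI-2 for Ifnb1 (-5.98), Sp140 (-3.17), Pml (-2.96), Irf7 (-2.66), Irf1 (-1.88, or -1.01 as the mean of all its probe sets), Itgal (-1.71), Uba7 (-1.55), Stat2 (-1.55), Ikbke (-1.26), Sp100 (-1.16), Hipk2 (-0.99), Trim25 (-0.90), Irf9 (-0.73) and Ticam2 (-0.57). It was higher in MPI-2 for Atrx (1.18), Itgb2 (0.96), Skp2 (0.89) and Ciao1 (0.76). The calls of Ciao1, Ticam2 and Irf9 were lost in 13, 13 and 1 of 21 alternatives, and that of Atrx in several. For Ifnb1 the means of MPI-2 LPS, MPI-2 mock and BMM mock were under background, so its difference is measured against a floor and may be understated. Groups of 3 arrays were too small to call single arrays outlying. Among the 12 array weights, those of BMM LPS replicate 3 (0.316) and BMM mock replicate 1 (0.408) were lowest. The highest was 2.166, for MPI-2 LPS replicate 1.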

How the results depend on the processing

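All 8 genes rose with LPS in BMM, were lower in MPI-2 LPS than BMM LPS and responded less in MPI-2 under each alternative, with 1 exception: Rtp4 lost its BMM call and the call of its difference after a second quantile normalization. The count of genes that fell in MPI-2 depended on the setting. It was 3 as reported, 4 with Cmpk2 added (compared groups alone, array weights), 2 with centred arrays and 1, Znfx1, after cyclic loess, after a second quantile normalization and with trended and robust variance estimation, and 1 to 3 when single arrays were left out. With the replicate numbers of the titles as a replicate block it was 2, since Usp18 passed to an adjusted p of 0.0529 in limma; the block changed no other call of the 8 genes, and those numbers were not taken to pair the samples, since the descriptions number MPI-2 mock differently. Rsad2 rose in MPI-2 under all 22 alternatives. Signs turned for Herc6 (0.0478 after cyclic loess) and Rtp4 (0.0873 after a second quantile normalization, 0.0140 without MPI-2 LPS replicate 2, and -0.1859 to 0.0140 over single arrays left out) in MPI-2, for Trim25 in BMM (-0.1715 to 0.0497 over single arrays left out, positive only without BMM mock replicate 1, and 0.0828 without it and BMM LPS replicate 3 together) and for Ticam2 between cell types after LPS (-0.0201 after cyclic loess), none with a call. Counts over all genes moved with the arrays in the fit. In MPI-2 1031 genes rose and 1910 fell as reported, 1854 and 3172 with the compared groups alone, and 1940 and 3243 with array weights. In BMM 2053 rose as reported and 1321 with the compared groups alone. Genes lower in MPI-2 numbered 1910 in mock and 2242 after LPS with arrays centred on their median, and 2865 after LPS among genes above background, where fewer genes were tested. The cause of the other shifts was not tested. Leaving out single arrays gave 783 to 1190 genes higher and 1317 to 2230 lower with LPS in MPI-2. Levels of Cmpk2 and Usp18 in MPI-2 lie at or near background, which limits what a decrease there can show.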
